A study of Mus musculus with 6 samples.

Results

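The genes described here are the receptors for the complement anaphylatoxins, C5ar1, C5ar2 and C3ar1, together with Hc, which encodes complement component C5. They are 4 of the 34745 genes in the deposited table and were found by gene name. The 4 genes were chosen from the counts themselves, in the contrast of HCD with ND tumours described next, so their levels and fold changes in that contrast are given as a description with no test. By the labels, tumours came from C57BL/6J mice with B16F10 cells, a mouse melanoma line, placed under the skin of the right flank. One group of mice ate a normal diet (ND) and the other a high cholesterol diet (HCD), with 3 tumours each. The age and sex of the animals, the make-up of the diets and the time on them are not given in the sources read for this text, and nothing says that the numbered tumours came from separate animals. By the labels both groups received the same cells and share the host strain. A subcutaneous tumour also holds host leucocytes and vessels, so a bulk level cannot tell fewer cells of a type from less RNA per cell.

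Complement is a cascade of plasma proteins in which enzymes cut C3 and then C5. The small fragments released, C3a and C5a, are called anaphylatoxins and act on G protein-coupled receptors. C3ar1 is the receptor for C3a. C5ar1 is the receptor through which C5a draws and activates neutrophils, monocytes and macrophages. C5ar2 also binds C5a and its form without the last arginine, does not couple to G proteins in the usual way, and is known as a scavenging and modulating receptor. C5 is made mainly by hepatocytes, and in smaller amounts by myeloid cells.

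C5ar1 (ENSMUSG00000049130) spans chromosome 7, 16246743 to 16259540, on the minus strand of mm10. C5ar2 (ENSMUSG00000074361) lies beside it at 16234585 to 16244154 on the same strand, and 2588 bases separate the 2 genes. C3ar1 (ENSMUSG00000040552) lies on chromosome 6, 122847138 to 122856161, and Hc (ENSMUSG00000026874) on chromosome 2, 34983331 to 35061438, both on the minus strand. The last exon of C5ar2 contains the snRNA gene Gm26473, at 16234738 to 16234864 of chromosome 7. Gm26473 was not analysed here, and the assignment of reads over the shared stretch is not given in those sources.

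The stretches upstream of the start sites of C5ar2 and C5ar1 are shown because the 2 genes are neighbours and both lay lower in HCD tumours. They are from the RefSeq promoter table of GRCm38.p6, are written on the minus strand up to the base before the start, and leave out exons annotated in GENCODE M21. All 4 genes matched the table by symbol, with 2 starts for C5ar2. The RefSeq start of C5ar1 and the inner start of C5ar2 lie inside the M21 spans given above, so these 2 stretches are upstream of the RefSeq starts but downstream of the outermost M21 starts. Capitals mark the ETS core GGAAGT and the C/EBP letters TTGCNNAA, searched on both strands, so that ACTTCC is the ETS core on the other strand.
C5ar2 outer start, chr7:16244155-16244404: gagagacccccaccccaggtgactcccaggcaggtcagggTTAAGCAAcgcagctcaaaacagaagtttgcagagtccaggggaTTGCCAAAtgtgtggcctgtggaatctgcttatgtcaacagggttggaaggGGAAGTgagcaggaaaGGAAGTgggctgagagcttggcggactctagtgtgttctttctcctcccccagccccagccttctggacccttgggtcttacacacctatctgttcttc
C5ar2 inner start, chr7:16242332-16242581: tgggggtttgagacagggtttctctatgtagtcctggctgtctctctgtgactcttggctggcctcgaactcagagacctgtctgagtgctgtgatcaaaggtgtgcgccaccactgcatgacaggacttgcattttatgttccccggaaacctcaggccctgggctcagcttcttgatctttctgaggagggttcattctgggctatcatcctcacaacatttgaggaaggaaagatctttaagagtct
C5ar1, chr7:16259339-16259512: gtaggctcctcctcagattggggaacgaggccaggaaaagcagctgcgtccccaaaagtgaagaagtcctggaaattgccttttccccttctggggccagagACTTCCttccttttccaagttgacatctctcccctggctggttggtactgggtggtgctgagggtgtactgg

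The ETS core, the letters read by factors such as PU.1 of myeloid cells, occurred 2 times in the 250 bases before the outer C5ar2 start and 2 times before the C5ar1 start, 1 of them in the stretch printed and the other in the M21 exon left out of it. It was in 19.7% of the 32851 windows of 250 bases in the table. The C/EBP letters occurred 2 times before the outer C5ar2 start, against 9.56% of all windows with a match. The AP-1 letters TGANTCA had 1 match, before C3ar1 (6.75% of all windows), and the sterol element letters TCACNCCAC had none before any of the 4 genes (1.05% of all windows). No motif matched before the inner C5ar2 start or before Hc. The matches do not overlap each other. A match describes the letters, not a site in use, and counts per gene do not tell which start of C5ar2 was transcribed.

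Levels are given in CPM, the read count scaled to the size of its library (here the total times its TMM factor). Library totals ran from 20351637 to 26228074 counts, and 15539 genes passed the filter on low counts. The data went against the label of the tumours: of 6 pigment cell genes, Tyr, Dct and Mlana had 0 counts in every library and the 6 summed to under 1 CPM (0.437 to 0.794 with ND and 0.964 to 0.974 with HCD), while the summed level of 8 hepatocyte genes was 3582 to 5393 CPM. Of the hepatocyte genes, Alb gave most of that sum and 3 (Apoh, Serpina1a and Fgg) were too low to be tested. The tumours are therefore called ND and HCD tumours here, with no cell of origin.

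C5ar2 was close to absent from HCD tumours. It had 41, 41 and 43 counts in ND 1 to ND 3 and 4, 3 and 1 counts in HCD 1 to HCD 3. In CPM these were 1.83, 1.55 and 2.09 in ND tumours and 0.193, 0.145 and 0.0487 in HCD tumours. The diets did not overlap, and the lowest ND library lay 8.04-fold above the highest HCD library. The means were 1.82 ± 0.268 CPM with ND and 0.129 ± 0.0734 CPM with HCD (SD, n = 3 each). Summed over the libraries of a diet, 125 counts in ND against 8 in HCD tumours gave a level 13.95-fold higher in ND, with an exact (Clopper-Pearson) 95% counting interval of 6.86 to 33.0. This interval covers counting error only, and reads without molecular identifiers are not independent molecules. It covers neither the spread between tumours nor the picking of C5ar2 from this contrast, so it is no test of the diets. A count of 3, the limit that a count of 0 allows, is 0.145 CPM in HCD 1 and HCD 2 and 0.146 CPM in HCD 3, so HCD 2 and HCD 3 lay at or under that limit. The gene was never at 0, and its presence in HCD tumours rests on 8 reads.

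The fitted log2 fold change of C5ar2 was -3.76 (HCD over ND), the most negative of the 15539 tested genes. C5ar2 passed the filter only through its ND libraries. With 8 HCD counts in all, the size of the value varied with what was added before taking logs. It was -3.12 with a prior count of 2, and -2.16 as a difference of mean log2(FPKM + 0.1), where FPKM is the deposited count scaled to the length of the gene and the library total. Leaving out each library in turn gave -4.15 to -3.39.

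C5ar1, the signalling receptor for C5a, was also lower in HCD tumours, by a smaller amount. It had 218, 299 and 183 counts in ND 1 to ND 3 and 72, 161 and 102 in HCD 1 to HCD 3. These are 9.73, 11.3 and 8.88 CPM in ND and 3.47, 7.78 and 4.97 CPM in HCD tumours. The diets did not overlap, but the highest HCD library and the lowest ND library were only 1.14-fold apart. The means were 9.98 ± 1.23 CPM and 5.41 ± 2.19 CPM (SD, n = 3 each), and the fitted log2 fold change was -0.88. HCD 2 was the closest of its diet to the ND range, and without it the log2 fold change was -1.24, while without HCD 1 it was -0.65.

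C3ar1, the receptor for C3a, was spread widely within both diets. It had 13.8, 31.9 and 21.8 CPM in ND 1 to ND 3 and 17.5, 38.5 and 18.9 CPM in HCD 1 to HCD 3. ND 1 was the lowest library and HCD 2 the highest, and the diets overlapped. The means were 22.5 ± 9.02 and 24.95 ± 11.8 CPM (SD, n = 3 each), with a fitted log2 fold change of 0.15. The sign of that value turned when 1 library was left out: it was -0.11 without ND 1 and -0.30 without HCD 2, and 0.49 without ND 2.

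Hc, the gene for C5, had nearly the same mean in both diets. It had 448, 432 and 484 counts in ND 1 to ND 3 and 491, 363 and 367 counts in HCD 1 to HCD 3. Per length these were 2.83, 2.38 and 3.39 FPKM, and 3.48, 2.57 and 2.53 FPKM. The diets overlapped, and Hc was the steadiest of the 4 genes, with its highest library 1.45-fold above its lowest. For C5ar1 that ratio was 3.26, for C3ar1 2.78 and for C5ar2 42.9. The Hc means were 19.9 ± 3.57 and 19.7 ± 3.45 CPM (SD, n = 3 each). The log2 fold change was -0.02 and ran from -0.17 to 0.12 when 1 library was left out.

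**Figure D1:**
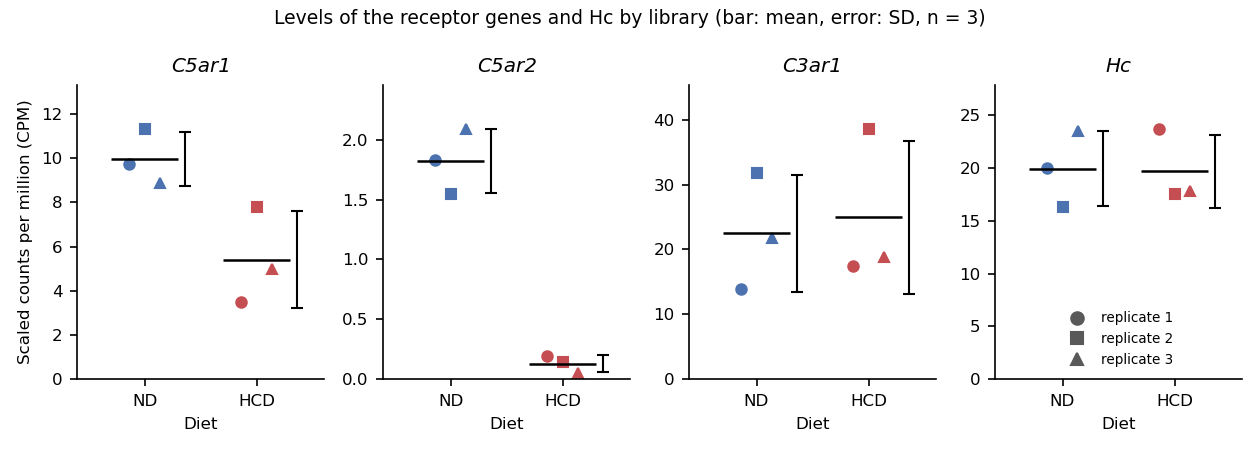
Levels in CPM (vertical axis, separate scale for each gene, all from 0) of C5ar1, C5ar2, C3ar1 and Hc in the 3 ND (blue) and 3 HCD (red) tumours. Each point is a library, its shape giving the replicate number of the labels; the bar is the mean and the error bar the SD. C5ar1 and C5ar2 do not overlap between the diets, with C5ar2 at 0.193 CPM or less in HCD tumours, while C3ar1 and Hc overlap.

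Across the whole table, the quasi-likelihood test of edgeR called 0% of the 15539 tested genes at an adjusted p under 0.05 (823 genes had an unadjusted p under 0.05), and the DESeq2 Wald test called 8 genes, 0.0515%. Without ND 2, edgeR called 2 genes. All 3 HCD libraries lay below all 3 ND libraries for 2 of the 4 genes, C5ar1 and C5ar2, and for 6.36% of all tested genes. They lay above for 0 of the 4 and for 4.75% of all tested genes. Since the genes were picked from this contrast, these counts describe them and support nothing further.

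The balance of the C5a receptors differed between the diets as well. C5ar2 made up 15.8%, 12.1% and 19.0% of the counts of C5ar1 and C5ar2 together in ND 1 to ND 3. In HCD 1 to HCD 3 it made up 5.26%, 1.83% and 0.971%. Exact 95% binomial intervals were 11.6% to 20.9%, 8.79% to 16.0% and 14.1% to 24.8% for the ND libraries. They were 1.45% to 12.9%, 0.379% to 5.25% and 0.0246% to 5.29% for the HCD libraries. The intervals cover counting error within a library only, not the spread between tumours. The mean share was 15.6% ± 3.49 in ND and 2.69% ± 2.27 in HCD tumours (SD, n = 3 each). The share comes from the same contrast and is a description too.

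**Figure D2:**
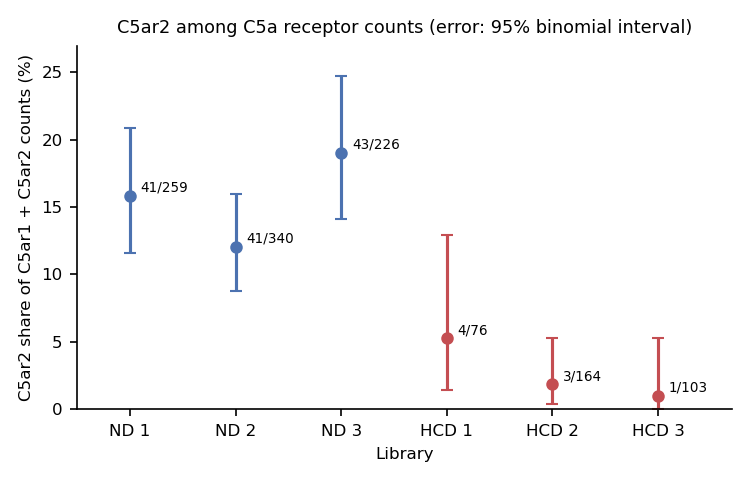
Share of C5ar2 in the summed counts of C5ar1 and C5ar2 (vertical axis, percent) for each library, with exact 95% binomial intervals and the counts printed beside each point. ND libraries (blue) sit at 12.1% to 19.0% and HCD libraries (red) at 0.971% to 5.26%.

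Levels of different genes can be compared only per length, for which the deposited FPKM values were used. By these, C3ar1 was highest, followed by Hc, C5ar1 and C5ar2, in this order in all 6 libraries. C3ar1 had 5.22 ± 2.16 FPKM in ND and 5.84 ± 2.80 FPKM in HCD tumours (SD, n = 3 each), and 57.7% of tested genes had a lower mean. Hc had 2.87 ± 0.506 and 2.86 ± 0.539 FPKM, C5ar1 1.98 ± 0.261 and 1.08 ± 0.443 FPKM, and C5ar2 0.509 ± 0.0734 and 0.0366 ± 0.0213 FPKM. The ranges of C3ar1 and Hc overlapped among ND libraries, 3.15 to 7.46 against 2.38 to 3.39 FPKM, but not among HCD libraries, where they were 4.14 to 9.06 and 2.53 to 3.48 FPKM. Hc and C5ar1, and C5ar1 and C5ar2, did not overlap within either diet.

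The place of C5ar1 in this order depends on its length. The deposited values imply 5021 bases for C5ar1, whereas its exons in the GENCODE M21 annotation of the same build cover 2570 bases. The implied lengths of C5ar2 (3561 bases) and C3ar1 (4305 bases) equalled the exons of M21, and that of Hc was 6927 against 6265 bases. With the M21 lengths, a comparison added after the data were seen, C5ar1 had 3.87 ± 0.510 FPKM in ND and 2.11 ± 0.866 FPKM in HCD tumours (SD, n = 3 each). It then lay above Hc in ND 1, ND 2 and HCD 2, and above C3ar1 in ND 1. C5ar2 was the lowest of the 4 genes in every library with either length, and the comparison of diets within a gene does not involve its length.

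The ratios between the receptors within a library are a further description of the same contrast, because each ratio holds C5ar1 or C5ar2. The FPKM of C3ar1 was 1.66, 3.28 and 2.86 times that of C5ar1 in ND 1 to ND 3 and 5.88, 5.77 and 4.43 times in HCD 1 to HCD 3. The FPKM of C5ar1 was 3.77, 5.17 and 3.02 times that of C5ar2 in ND libraries and 12.8, 38.1 and 72.3 times in HCD libraries. The diets overlapped for neither ratio. The last ratio has 1 to 4 counts of C5ar2 below the line in HCD tumours.

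Macrophages, monocytes and neutrophils are the main carriers of these receptors, so their markers are given beside them. The summed level of 13 macrophage and monocyte markers was 382 to 743 CPM in ND and 506 to 1148 CPM in HCD tumours, with counts for all 13 genes in every library. Among them, Lyz2, which encodes lysozyme, had 207 ± 92.3 and 322 ± 169 CPM. Csf1r, the receptor for the macrophage growth factor CSF-1, had 101 ± 31.3 and 129 ± 41.9 CPM, and the mannose receptor gene Mrc1 75.7 ± 13.3 and 74.8 ± 21.6 CPM (SD, n = 3 each). The summed level of 11 neutrophil markers was 78.5 to 148 CPM in ND and 64.8 to 78.4 CPM in HCD tumours. All 11 had counts, 8 of them in every library. Csf3r, the granulocyte growth factor receptor gene, had 51.25 ± 7.75 and 35.4 ± 7.31 CPM. The calprotectin genes S100a9 and S100a8 had 34.4 ± 17.9 and 14.1 ± 1.05 CPM, and 13.2 ± 6.80 and 6.76 ± 0.405 CPM (SD, n = 3 each). Of the 8 tested neutrophil markers 6 were negative, with a median log2 fold change of -0.58, and 2 were positive, Ly6g at 0.10 and Ngp at 0.65. Mpo and Elane, below the filter, had higher means with HCD, each with its highest level in HCD 1 and 0 counts in HCD 2. Of the 13 tested macrophage markers 11 were positive, with a median log2 fold change of 0.37, and 2 were negative, Cd14 at -0.32 and Mrc1 at -0.02. By edgeR, 0 of the 13 tested macrophage and 0 of the 8 tested neutrophil markers passed, and DESeq2 called 0 of either. At an unadjusted p under 0.05 by edgeR there were 1 (Cd14) and 3, against 823 of all 15539 tested genes. Without ND 2, S100a9 passed (log2 fold change -1.66, edgeR adjusted p = 0.0399).

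Set against these markers, C5ar2 did not overlap between the diets and C5ar1 overlapped for 1 list only. Both genes were picked from this contrast, so these values are a description too. The gap of C5ar2 between the diets, 8.04-fold, was wider than the spread of either marker sum. Its separation was therefore fixed before the markers were brought in. Per 100 CPM of macrophage and monocyte markers, C5ar1 had 1.36 to 2.55 CPM in ND and 0.497 to 0.982 CPM in HCD tumours, and C5ar2 0.209 to 0.479 and 0.00962 to 0.0276 CPM. Per 100 CPM of neutrophil markers, C5ar1 had 5.99 to 14.4 and 5.0 to 9.92 CPM, which overlapped, and C5ar2 had 1.34 to 1.98 and 0.0751 to 0.278 CPM, which did not. C3ar1 had 3.35 to 4.28 and 2.51 to 3.72 CPM per 100 CPM of macrophage markers, a narrower range than its own level, and 10.1 to 40.6 and 25.2 to 49.1 CPM per 100 CPM of neutrophil markers. The neutrophil sum was lower in each HCD library than in each ND library, narrowly so between ND 2 (78.49 CPM) and HCD 2 (78.41 CPM), and its part in the levels of C5ar1 and C5ar2 was not tested.

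**Figure D3:**
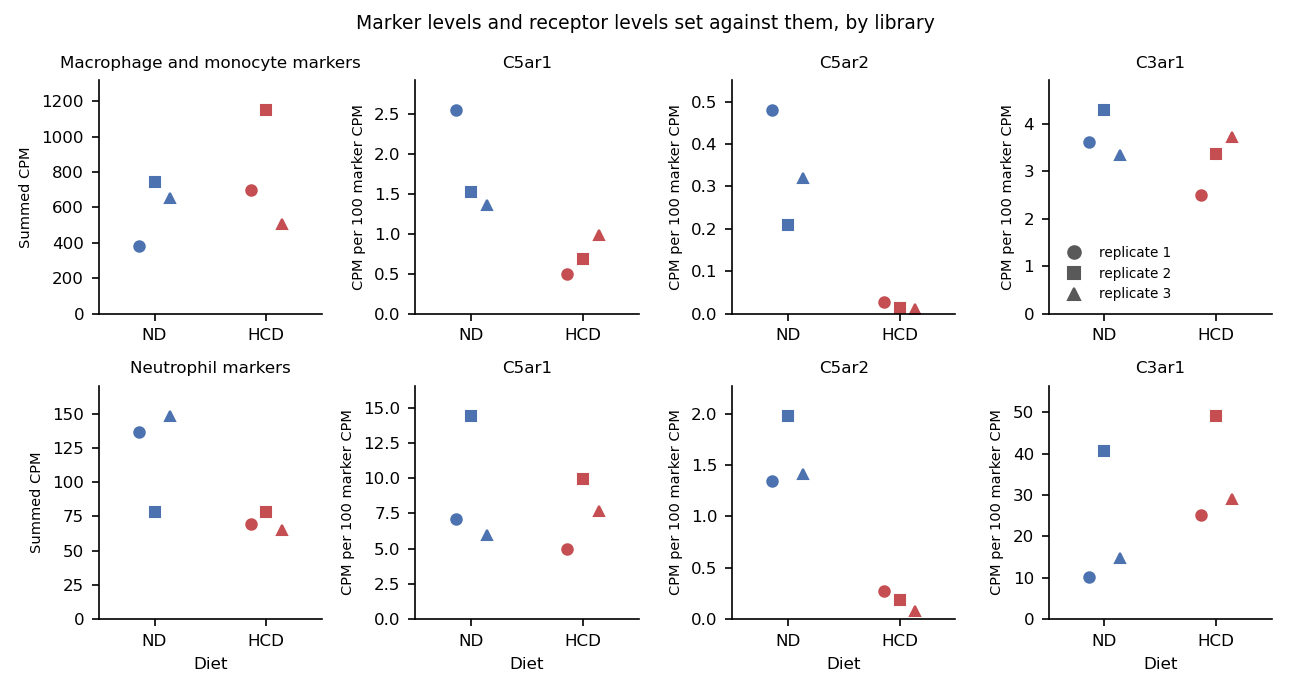
Left column: summed CPM of the macrophage and monocyte markers (top) and the neutrophil markers (bottom) in each library. Other columns: CPM of C5ar1, C5ar2 and C3ar1 per 100 CPM of these markers (ND blue, HCD red, shape for the replicate number, all axes from 0). C5ar2 lies lower in all 3 HCD libraries against both lists, and C5ar1 overlaps between the diets when set against neutrophil markers. The separation of C5ar2 restates its own levels, from which it was picked.

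Other cells that can carry the receptors had these summed levels. The 7 mast cell markers summed to 37.3 to 95.1 CPM in ND and 65.6 to 192 CPM in HCD tumours, and the 6 dendritic cell markers to 16.6 to 33.5 and 24.45 to 40.6 CPM. The 4 eosinophil markers summed to 2.95 to 3.64 and 2.14 to 5.11 CPM, and the 4 endothelial markers to 127.5 to 158 and 139.5 to 293 CPM. The 6 T cell markers summed to 14.8 to 64.9 and 41.8 to 110 CPM, and the 4 B cell markers to 1.07 to 3.404 and 1.75 to 14.1 CPM. The ranges of the diets overlapped for each of these 6 lists.

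The neighbours of C5ar2 and C5ar1 on chromosome 7 had log2 fold changes far from that of C5ar2. C5ar2 was picked from this contrast with the most negative value, and the central 90% of tested genes lay at -0.44 to 0.56. Nearly any genes would lie as far from it, so the distance is a description only. Within 200 kb of C5ar2 or C5ar1, 10 other genes were tested. By edgeR 0 of the 10 passed (2 at an unadjusted p under 0.05, smallest adjusted p = 0.839), and DESeq2 called 0. Their log2 fold changes ran from -0.42 to 0.11 with a median of -0.14, and 2 of 10 were positive, against a median of 0.01 and 53% positive over all tested genes. Inafm1, the next gene beyond C5ar1, had 10.7 ± 0.498 CPM with ND and 7.97 ± 0.296 CPM with HCD (SD, n = 3 each), with a log2 fold change of -0.42 ± 0.12 SE. Dhx34, a helicase gene of nonsense-mediated decay and the nearest tested gene on the other side, had 39.0 ± 4.16 and 35.3 ± 5.05 CPM (log2 fold change -0.14 ± 0.13 SE). The p53 target Bbc3 had a log2 fold change of -0.27 ± 0.14 SE, Zc3h4 of -0.24 ± 0.06 SE, Meis3 of -0.38 ± 0.27 SE and Ccdc9 of -0.13 ± 0.08 SE. Napa, a gene of vesicle fusion, had -0.08 ± 0.07 SE, Kptn 0.11 ± 0.12 SE, the SUMO-activating enzyme gene Sae1 0.01 ± 0.08 SE and Tmem160 -0.01 ± 0.12 SE. The diets did not overlap for 3 of the 10, Inafm1, Bbc3 and Zc3h4, all lower in HCD tumours. Over all tested genes, 6.36% lay lower in this way, a smaller share than among these neighbours. Zc3h4 shares exon sequence with the antisense gene Gm45510, and the strand setting of the counting is not given in the sources used here.

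**Figure D4:**
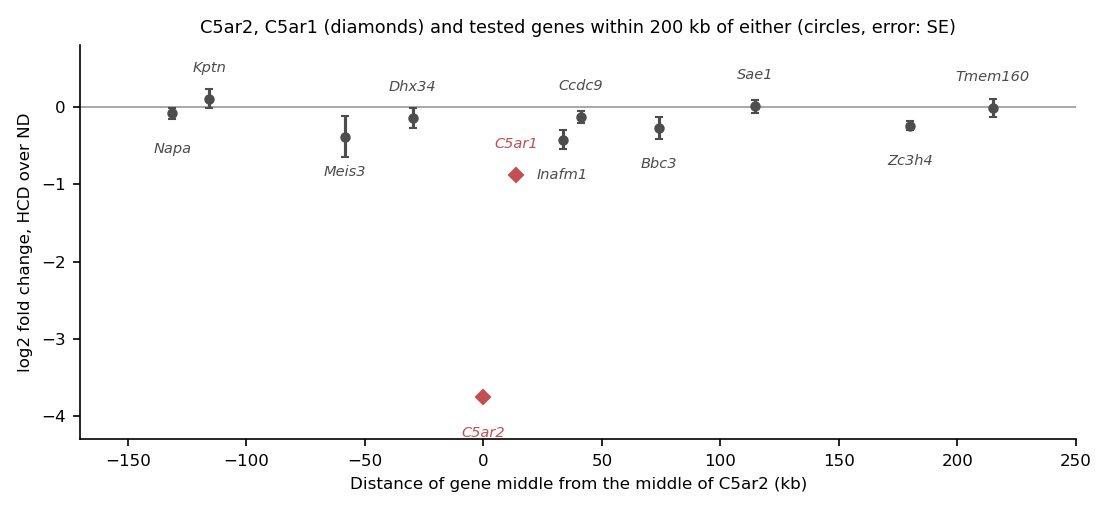
Fitted log2 fold change, HCD over ND (vertical axis), against the distance of the middle of each gene from the middle of C5ar2 (horizontal axis, kb). Diamonds are C5ar2 and C5ar1, given with no error because they were picked from this contrast, and circles are the 10 other tested genes with their SE. The circles lie between -0.42 and 0.11, within the central 90% of all tested genes (-0.44 to 0.56). Their distance from C5ar2, at -3.76, follows from the picking of C5ar2.

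The rest of the complement system and of the receptor pathway was followed in 8 lists with 77 genes, of which 57 were tested. By edgeR 0 of 57 passed in either direction (1, Clu, at an unadjusted p under 0.05, and an adjusted p of 0.839), and DESeq2 called 0. The median log2 fold change over the 57 genes was 0.15, and 38 were positive. Over all tested genes the median was 0.01 and 53% were positive. None of the adjusted p-values of the genes named next was under 0.839.

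C3 was the most abundant gene of its list in both diets. C3, whose product is the source of C3a, had 886 ± 75.0 CPM with ND and 848 ± 56.9 CPM with HCD (SD, n = 3 each). The log2 fold change was -0.06 ± 0.09 SE. Properdin, which steadies the alternative pathway convertase, is encoded by Cfp and had 25.2 ± 6.76 and 37.7 ± 13.01 CPM (0.58 ± 0.28 SE). Cfd, the factor D gene, had 3.25 ± 3.82 and 6.37 ± 4.98 CPM. Of the 4 genes of this list, 2 were positive and 2 negative.

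The recognition molecules and proteases of the classical and lectin pathways lay mostly on the positive side, with 11 of 14 tested genes positive, a median of 0.19 and none past the test. C1qa and C1qb, which encode chains of C1q and are made by macrophages, had 106 ± 39.0 and 155 ± 53.8 CPM, and 106.5 ± 40.7 and 159.5 ± 68.2 CPM in ND and HCD tumours (SD, n = 3 each). The C1s protease genes C1s1 and C1s2 had log2 fold changes of 0.13 ± 0.11 and 0.55 ± 0.32 SE. The mannose-binding lectin genes Mbl1 and Mbl2 had 0 counts in all libraries.

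Terminal components other than C5 were scarce. Of 6 genes, C8a and C8b had 0 counts in every library, C9 had 3 counts in all, and only C6 and C8g were tested. C6 had 4.42 ± 1.46 CPM with ND and 4.32 ± 2.25 CPM with HCD, and C8g 2.11 ± 0.219 and 2.405 ± 0.317 CPM (SD, n = 3 each).

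Among fluid-phase regulators, 5 of 7 tested genes were negative, with a median of -0.05. Clu, the clusterin gene, had 471 ± 59.5 CPM with ND and 384 ± 40.0 CPM with HCD (log2 fold change -0.29 ± 0.11 SE). Serping1, the C1 inhibitor gene, had 115 ± 31.2 and 124 ± 58.5 CPM. Cpn1, the catalytic subunit of the carboxypeptidase that trims the last arginine from C3a and C5a, had 99.1 ± 10.5 and 104 ± 24.9 CPM (SD, n = 3 each; 0.07 ± 0.17 SE). Its partner subunit Cpn2 had 4 counts in all, and Cpb2, which encodes a carboxypeptidase with similar targets, 2 counts.

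Membrane regulators, which protect cells from complement, were negative for 4 of 5 tested genes, with a median of -0.11. Cr1l, the rodent regulator Crry, had 83.5 ± 1.49 CPM with ND and 77.2 ± 2.88 CPM with HCD (-0.11 ± 0.06 SE), without overlap of the diets. Among all tested genes, 6.36% lay lower without overlap. Cd59a, which blocks the membrane attack complex, had 11.7 ± 0.867 and 10.4 ± 1.54 CPM, and Cd55, decay-accelerating factor, 3.85 ± 1.13 and 3.75 ± 2.97 CPM (SD, n = 3 each).

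Receptors for other complement fragments and related chemoattractant receptors lay mostly on the positive side. Of 6 tested genes for receptors of C1q and C3 fragments 5 were positive (median 0.37). The integrin genes Itgb2 and Itgax, subunits of complement receptors on leucocytes, had 68.4 ± 30.8 and 104 ± 42.6 CPM, and 68.0 ± 27.8 and 100.2 ± 29.6 CPM in ND and HCD tumours (SD, n = 3 each). C1qbp had 155 ± 8.10 and 175 ± 15.2 CPM. Of 5 tested chemoattractant receptor genes 4 were positive (median 0.43). Cmklr1, the chemerin receptor gene, had 10.97 ± 2.76 and 16.6 ± 5.19 CPM (0.60 ± 0.27 SE), Ptafr, for platelet-activating factor, 11.9 ± 4.495 and 16.0 ± 5.04 CPM, and the formyl peptide receptor gene Fpr2 5.702 ± 2.21 and 7.10 ± 5.80 CPM (SD, n = 3 each). Without HCD 2 the log2 fold change of Fpr2 was -0.59 in place of 0.31.

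The G proteins, kinases and arrestins that act behind such receptors were all tested, and 12 of 14 were positive with a median of 0.16. Gnai3 and Gnai2, the inhibitory G protein subunits, differed by 0.03 ± 0.06 and 0.01 ± 0.06 SE. Adrbk1, the receptor kinase GRK2, had 136 ± 5.42 CPM with ND and 153 ± 11.7 CPM with HCD (SD, n = 3 each). Its log2 fold change was 0.17 ± 0.07 SE. The diets did not overlap for Adrbk1 or for Grk6 (0.15 ± 0.07 SE), both higher with HCD. Of the 57 tested genes of all pathway lists, 2 lay higher and 1 lower without overlap. Among all tested genes, 4.75% lay higher and 6.36% lower without overlap, so the pathway lists did not stand out. Plcb3 had a log2 fold change of -0.11 ± 0.08 SE.

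**Figure D5:**
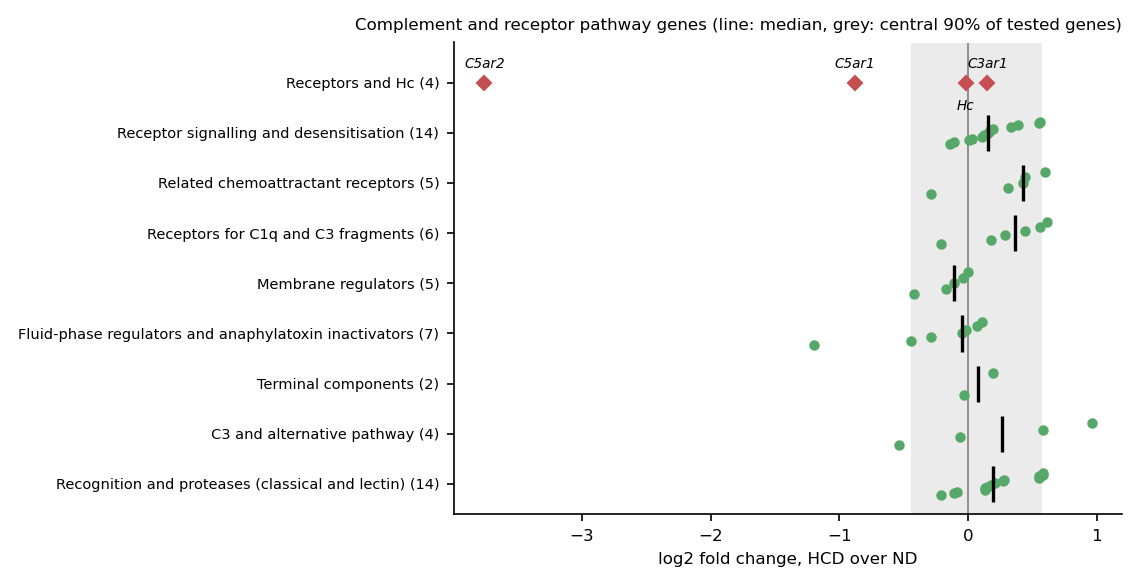
Fitted log2 fold change, HCD over ND (horizontal axis), of the tested genes of each pathway list (green points, number of genes in brackets, black line at the median) and of the 4 genes described here (red diamonds). The grey band holds the central 90% of the 15539 tested genes, -0.44 to 0.56. C5ar1 and C5ar2 lie left of the band, and the list medians lie between -0.11 and 0.43. Single list genes lie outside the band on both sides. Cfi at -1.20, further left than C5ar1, and Cfb at -0.54 lie to the left, and Cfd at 0.96 is among those to the right.

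The genes whose profile over the 6 libraries was most like each of the 4 were found by the root mean square difference of centred log2 CPM. The search covered 12558 named genes whose mean reached 1 CPM. For C5ar2 the closest was Igha, the constant region of IgA, at a difference of 0.80, followed by Mmp10 (0.97), Rasgrp4 (0.99), Lgi2 (1.01) and Sytl5 (1.01), where the median gene differed by 1.63. Igha had 92.25 ± 43.3 CPM with ND and 21.9 ± 11.5 CPM with HCD, and Rasgrp4, a Ras activator of mast cells and neutrophils, 5.52 ± 0.516 and 2.40 ± 0.774 CPM (SD, n = 3 each). No gene was as close to C5ar2 as the nearest ones were to the other 3 genes. The difference is not scaled to the range of a gene, so this follows from the wide range for which C5ar2 was picked. C5ar1 was closest to Fat2 (0.25), Dhrs9 (0.26), Aspa (0.27), Inhba (0.28) and Lmx1a (0.30), against a median of 0.61. C3ar1 was closest to Alox12 (0.09), Gcnt1 and Apbb1ip (both 0.11), Hrh2 (0.12) and Tcea2 (0.13), with a median of 0.53, and Hc to Gna11 and Lppr3 (both 0.07), Ccdc40 (0.08), Phf21b and Bre (both 0.09), with a median of 0.25. C5ar1 differed by 1.24 from C5ar2, its neighbour, and by 0.63 from C3ar1. The search ranked genes over libraries that share 6 points, so it describes likeness in these libraries only.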

How the data were processed

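RNA of 6 tumours, 3 ND and 3 HCD, was analysed, with diets and replicate numbers taken from the labels. Per the labels' protocols, total RNA was made into paired-end libraries with TruSeq RNA reagents. The deposited values of the authors are raw read counts and FPKM per gene. Per the submitters' processing notes, the tools were TopHat2 2.0.9, HTSeq, edgeR and CASAVA 1.8 with mm10, in no stated role. The deposited FPKM equal count over library total and a fixed gene length, within 0.0955% between libraries.

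Genes were filtered with filterByExpr (minimum count 10, minimum total 15), scaled by TMM and tested with edgeR 4.0.16 (quasi-likelihood F-test, legacy form, R 4.3.3), with diet as the only term and Benjamini-Hochberg adjustment over 15539 genes (threshold 0.05). Fold changes use a prior count of 0.125, and SE come from the fold change and F. The test was checked on artificial counts with known changes. That check shows that the code recovers such changes, not how the test performs on these tumours. Nothing says that the tumours came from separate animals, so p-values reflect the spread of these samples alone, which may be technical.

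The 4 genes, the lists and the rules were chosen with earlier results of these data known. Values of the 4 genes are given as a description. Each pathway list gave its 3 genes with the highest mean FPKM and the one with the smallest p, macrophage and neutrophil markers the 3 with the highest CPM, and all tested genes within 200 kb were named. Where a symbol had several IDs (Itgam, C1s2), the one with most counts was used. Coordinates are from GENCODE M21. Replicates differed by more than sampling noise (chi-square per degree of freedom 17.2 to 32.2). Alternatives were other scalings, no filter, DESeq2 1.42.0, adjusted deviances, prior count 2, log2(FPKM + 0.1), a replicate block and each library left out.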

Additional observations from a re-analysis of the deposited data

How the results depend on the processing

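The count of genes called was 0 with DESeq2 size factors, upper quartile factors, no filter, adjusted deviances (smallest adjusted p = 0.0939) and the replicate block (0 genes). It was 8 with the DESeq2 Wald test (1 higher and 7 lower), and 0 to 2 in the fits without 1 library, the 2 being lower without ND 2. The count of pathway genes called was 0 in each of these fits. The deviations of same-numbered libraries from their diet mean correlated by -0.31, 0.14 and 0.08 over 15539 genes. No library correlated best with its own number. With 3 libraries per diet, such correlations cannot tell whether the replicate numbers pair the samples. With the replicate block, log2 fold changes were -3.78 for C5ar2, -0.95 for C5ar1, 0.14 for C3ar1 and -0.02 for Hc. Under the alternatives listed for the 4 genes, the one value that moved beyond the spread of replicates was C5ar2 by log2(FPKM + 0.1), at -2.16, where the pseudocount exceeds the HCD levels. With M21 exon lengths, chosen after the data were seen, the mean FPKM of C5ar1 was 2.99 in place of 1.53. Of 41 other named genes, 31 kept their direction in all fits without 1 library. The other 10, none of which was called, ran from -0.48 to 0.29 (C6), -0.28 to 0.41 (Serping1), -0.12 to 0.23 (Cpn1), -0.73 to 0.46 (Cd55), -0.59 to 0.68 (Fpr2), -0.00231 to 0.07 (Gnai3), -0.02 to 0.04 (Gnai2), -0.27 to 0.11 (Mrc1), -0.06 to 0.05 (Sae1) and -0.07 to 0.03 (Tmem160). S100a9 passed without ND 2 (log2 fold change -1.66, edgeR adjusted p = 0.0399). At this depth C5ar2 had 8 counts in all HCD libraries, which limits the precision of its fold change.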
